A study of Mus musculus with 4 samples.

Results

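Genes of nucleic acid sensing, 10 in all, were followed across the 4 arrays of tumour-derived mouse breast cancer cells: Ddx58, Ifih1, Dhx58, Tlr3, Zbp1, Mavs, Tmem173, Tbk1, Trex1 and Samhd1. The members were chosen by name, as the non-control probes whose gene name in the scanner files was one of these symbols, which gave 14 of 39429 probes and 10 of 31829 gene names. Of these, 4 (Ddx58, Ifih1, Zbp1 and Samhd1) had 2 probes and 6 had 1, and the brightest probe over the 4 arrays stood for its gene. The study asked how Her2 positive cells differ when the gene of Pak1, a p21-activated kinase, is lost. There were 2 samples labelled Pak1 -/- and 2 labelled Pak1 +/+, and the tumours behind the samples of a group were separate ones per the series design. All came from MMTV-Neu mice, in which Neu (Her2) is expressed in mammary epithelium from the promoter of the mouse mammary tumour virus, so the oncogene is common to both groups. All were cell lines kept in low calcium medium with horse serum, and all had been without serum for 3 h and then with EGF for 15 min when RNA was taken. The age of the mice is not given in the sources used here.

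Cells carry receptors that recognise RNA or DNA in the wrong place, a sign of viral infection or of leaked nuclear or mitochondrial nucleic acid. RIG-I (gene Ddx58) and MDA5 (Ifih1) bind double-stranded or uncapped RNA in the cytosol and signal through the mitochondrial adaptor Mavs, LGP2 (Dhx58) tunes them, Tlr3 reads double-stranded RNA in endosomes, and Zbp1 binds nucleic acid in the Z conformation. DNA in the cytosol signals through STING (Tmem173), and both adaptors recruit the kinase Tbk1, which phosphorylates the factor that starts type I interferon transcription. The exonuclease Trex1 and the dNTP hydrolase Samhd1 degrade DNA in the cytosol and dNTPs, respectively, and loss of either causes an interferon disease. Several of the receptors are themselves made in larger amounts after interferon.

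Each array was read in 1 colour, and the levels below are normalized log2 intensities. The median spot intensity was 322 to 331 over a median local background of 39.0 to 42.0, and 62.2% to 70.4% of the probes were well above background. Arrays correlated at r = 0.997 within each group and at 0.954 to 0.959 between groups, across probes, which are not independent replicates. The Pak1 probe stood at 12.21 and 12.25 in the group labelled Pak1 -/- and at 12.04 on both arrays of the group labelled Pak1 +/+ (difference 0.19, limma adjusted p = 0.070). It was not lower in the group labelled as lacking the gene, and whether it lies in the deleted part is not given in the sources used here, so every direction below is that of the labels. The arrays labelled Pak1 -/- held positions 1 and 2 of the slide and those labelled Pak1 +/+ positions 3 and 4, so position and genotype cannot be told apart. Of 8 epithelial markers Krt8, Krt18, Epcam, Cldn3 and Cldn7 were between 15.01 (Epcam) and 18.88 (Krt18) on every array, while Cdh1 was at 11.57 to 12.91, Cldn4 at 9.34 to 9.64 and Krt19 at 6.94 to 8.13. In limma 3 of the 8 were higher in the arrays labelled Pak1 -/-, Cdh1 by 1.19, Krt8 by 0.57 and Krt18 by 0.27. None was lower, beside 23.3% higher and 28.6% lower over all probes. The part of these markers in the results below was not tested.

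All 10 genes were well above background on all 4 arrays and none was saturated. Of them, 7 were higher in the arrays labelled Pak1 -/- at an adjusted p of 0.05 in limma (Ddx58, Ifih1, Dhx58, Tlr3, Zbp1, Trex1 and Samhd1) and 3 were lower (Mavs, Tmem173 and Tbk1). Among all 27229 probes tested, 51.9% passed in either direction, 23.3% were higher and 28.6% lower by the same rule, so the share of members that were lower is near that of the array as a whole. At least 2-fold higher were 6 members, against 6.94% of the probes, and at least 4-fold higher were 4, against 2.22%. Dhx58, Ifih1, Zbp1 and Ddx58 had the largest differences, Trex1 and Samhd1 were 3.04-fold and 2.50-fold higher, Tlr3 was 1.57-fold higher, and the adaptors and the kinase were lower by 1.22-fold to 1.27-fold. The values of the groups did not overlap for any of the 10 genes, which was also true of 78.2% of the probes tested.

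**Figure D1:**
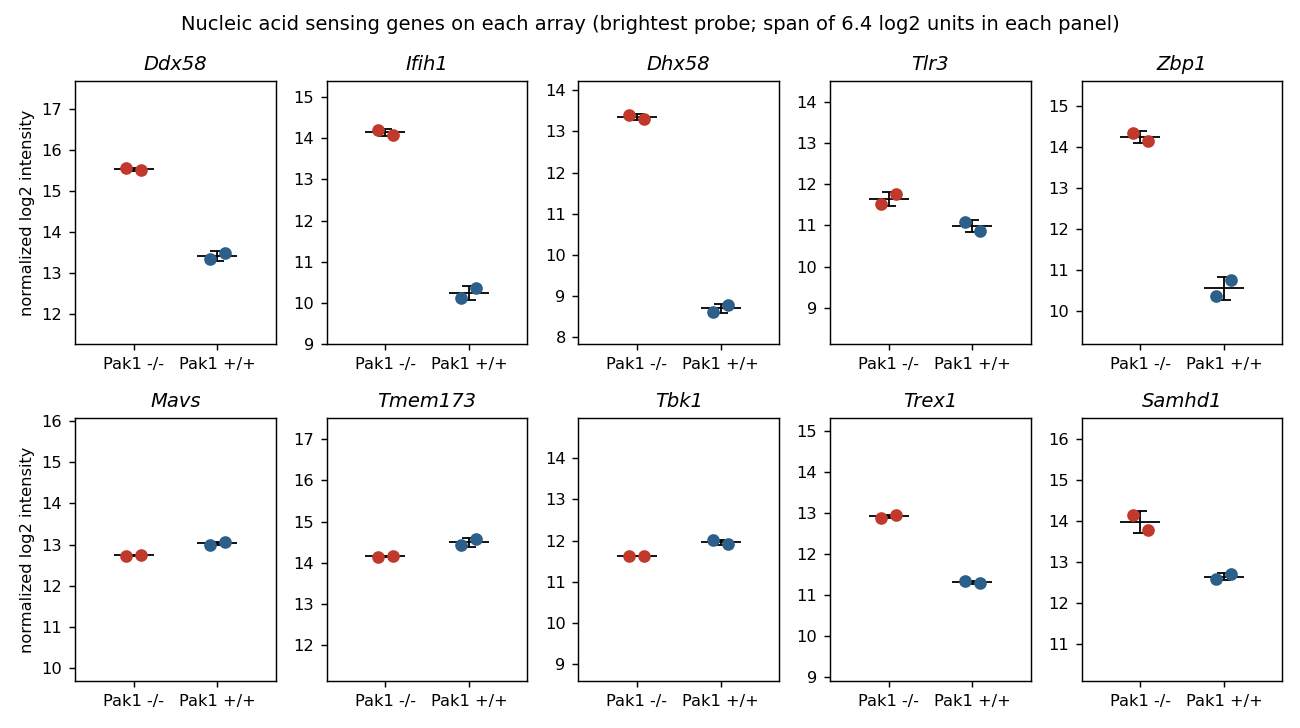
Normalized log2 intensity of the brightest probe of each gene on the 4 arrays (vertical axis, with the same span in every panel) for the groups labelled Pak1 -/- (red) and Pak1 +/+ (blue); points are arrays, and the line and bar are the group mean and SD (n = 2). Dhx58, Ifih1, Zbp1 and Ddx58 are far apart between groups, while Mavs, Tmem173 and Tbk1 lie slightly lower in the arrays labelled Pak1 -/-.

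The RIG-I-like receptors are the helicases that bind viral RNA in the cytosol. Dhx58 (LGP2, 1 probe, mm9 chromosome 11, 100556271 to 100556330) had the largest difference of the 10 genes. Its level was 13.40 and 13.30 in the group labelled Pak1 -/-, against 8.62 and 8.78 in the group labelled Pak1 +/+, with raw spot means of 10211 and 10488.5 against 375 and 412. Both arrays of the first group were thus far above both of the second. The log2 difference was 4.65 (SE 0.09, adjusted p = 5.5e-05), or 25.2-fold. By size it ranked 105 among the 27229 probes tested.

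Ifih1 (MDA5), which reads long double-stranded RNA, was 14.20 and 14.09 against 10.12 and 10.36 by its brighter probe (chromosome 2, 62435507 to 62435566). The difference was 3.90 (SE 0.11, adjusted p = 0.00010), or 14.9-fold. Its other probe (62434960 to 62435019) was 9.07 and 9.10 against 6.70 and 6.76. That probe was not well above background on either array labelled Pak1 +/+, so it gives a bound, at least 4.66-fold higher, where the fitted difference was 2.36 (adjusted p = 0.00011).

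Ddx58 (RIG-I), which binds short RNA with a 5′ triphosphate, was 15.55 and 15.50 against 13.34 and 13.50 (chromosome 4, 40151893 to 40151952). The difference was 2.11 (SE 0.09, adjusted p = 0.00020), or 4.31-fold. Its other probe (40151133 to 40151192) was 11.64 and 11.59 against 9.79 and 9.81, a difference of 1.82 (SE 0.07, adjusted p = 0.00017). Of the 3 helicases Ddx58 had the smallest difference, and it was also the one with both probes measured in both groups.

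For both helicases the dimmer probe lies downstream of the brighter one on the minus strand, 700 bases away in Ddx58 and 487 bases away in Ifih1. The last 30 bases of each probe are shown, to show where each measurement was made, with the polyadenylation hexamer aataaa in capitals where the probe has it.
Ddx58 A_55_P1965000 (difference 2.11): ctctagctattttcAATAAAggctcatgtt
Ddx58 A_52_P385536 (difference 1.82): ttagtgcAATAAAatgaatttgccgagagc
Ifih1 A_55_P2005783 (difference 3.90): aactgcaagctacAATAAAtcatttcttcc
Ifih1 A_55_P1978987 (at least 4.66-fold higher): ctacgcattatagcagctgttttgtatgcc
The brighter Ifih1 probe and both Ddx58 probes hold the hexamer. Since the dimmer Ifih1 probe gives only a bound, its difference cannot be set against that of the brighter one, and the gap between the Ddx58 probes was not tested. Whether the transcripts end at these hexamers was not tested.

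The other receptors were Zbp1 and Tlr3. Zbp1, whose Z-nucleic-acid-binding domains can lead to necroptosis, had a probe for each of 2 transcript variants, 6989 bases apart. The brighter probe (variant 2, chromosome 2, 173039307 to 173039366) was 14.33 and 14.14 against 10.36 and 10.76, a difference of 3.68 (SE 0.16, adjusted p = 0.00023), or 12.8-fold. The probe of variant 1 (173032258 to 173032317) was 13.04 and 12.64 against 8.24 and 8.51, a difference of 4.46 (SE 0.17, adjusted p = 0.00018), or 22.1-fold. Both probes separated the groups by far more than the spread within them, and their difference between each other, 0.79 log2, was not tested.

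Tlr3 was 11.52 and 11.76 against 11.09 and 10.88 (chromosome 8, 46481729 to 46481788). The difference was 0.65 (SE 0.13, adjusted p = 0.013), or 1.57-fold, the smallest of the genes that were higher. The arrays of each group differed from each other by a good part of this, and without Pak1 -/- replicate 2 the call was lost (0.53, adjusted p = 0.053).

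Trex1, the main 3′ exonuclease for cytosolic DNA, was 12.89 and 12.95 against 11.34 and 11.29 (chromosome 9, 108960454 to 108960513). The difference was 1.60 (SE 0.07, adjusted p = 0.00024), or 3.04-fold, with nearly the same level on both arrays of each group.

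Samhd1, which hydrolyses dNTPs and restricts reverse transcription, was 14.15 and 13.79 against 12.58 and 12.71 (chromosome 2, 156923265 to 156923324). The difference was 1.32 (SE 0.14, adjusted p = 0.0023), or 2.50-fold. Its other probe, whose 60 bases span 1354 bases of the genome (156930644 to 156931997), was 12.49 and 12.27 against 10.94 and 10.95, a difference of 1.43 (SE 0.10, adjusted p = 0.00071). The probes lie 7319 bases apart on the chromosome and are assigned to different transcript variants (variant 2 for the first, variant 1 for the other), and their differences lay 0.11 apart, a gap that was not tested. Both are shown whole, since each gave the gene as higher at a separate place.
Samhd1 A_55_P2019699: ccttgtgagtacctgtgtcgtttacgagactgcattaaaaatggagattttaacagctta
Samhd1 A_52_P466090: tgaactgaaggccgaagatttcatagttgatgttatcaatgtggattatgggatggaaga

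The adaptors Mavs and Tmem173 and the kinase Tbk1 were lower, by small amounts. Mavs was 12.73 and 12.76 against 13.00 and 13.06 (chromosome 2, 131073675 to 131073734), a difference of -0.28 (95% interval -0.47 to -0.10, adjusted p = 0.026). Tmem173 (STING) was 14.15 and 14.16 against 14.42 and 14.57 (chromosome 18, 35893692 to 35893751), a difference of -0.35 (-0.56 to -0.13, adjusted p = 0.024). Tbk1 was 11.62 and 11.62 against 12.00 and 11.91 (chromosome 10, 120988364 to 120988587), a difference of -0.34 (-0.53 to -0.15, adjusted p = 0.017). The arrays labelled Pak1 -/- lay below both others for each of the 3 genes. None of the 3 calls held without Pak1 -/- replicate 1, Pak1 -/- replicate 2 or Pak1 +/+ replicate 2, and 1 (Tmem173) held without Pak1 +/+ replicate 1. Under cyclic loess only Tbk1 passed, where the median over all probes was 0.05 above that of the main setting.

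**Figure D2:**
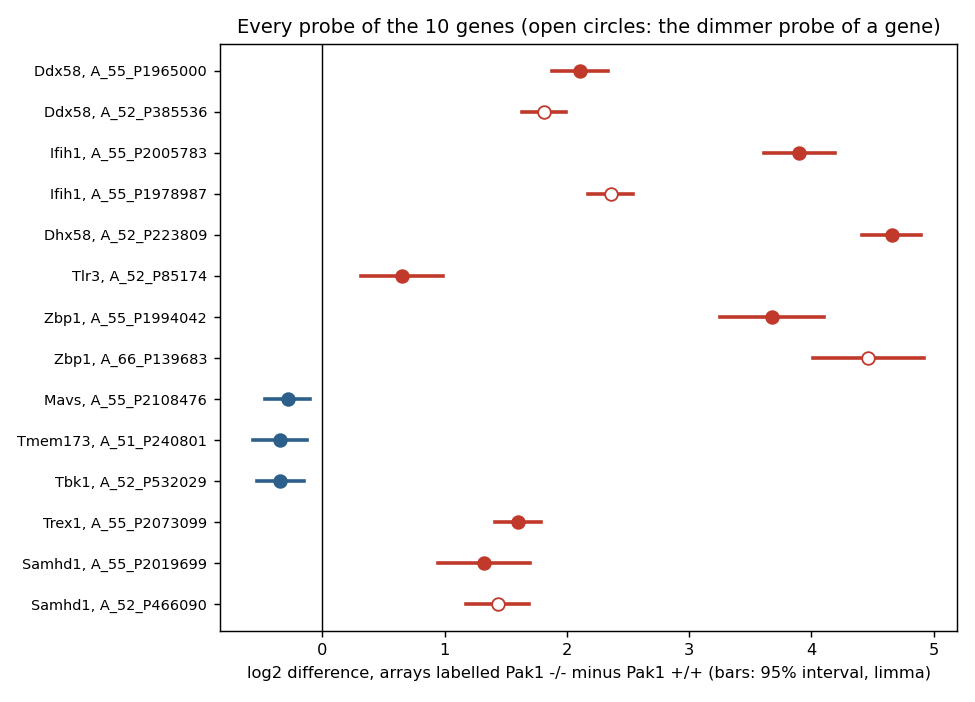
Log2 difference of each of the 14 probes (horizontal axis, arrays labelled Pak1 -/- minus Pak1 +/+, n = 2 each) with its 95% interval from limma; filled circles are the brightest probe of a gene and open circles its dimmer probe, red is higher and blue lower, and the dimmer Ifih1 probe, which gives only a bound, is at its fitted value. To the right of 0 lie 11 probes, and the single probes of Mavs, Tmem173 and Tbk1 to the left.

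Promoters were examined because the receptors moved together. RefSeq promoter windows on GRCm38.p6, from 250 bases before to 50 after the start of the gene, matched 7 of the 10 genes by symbol; no window was used for Dhx58, Zbp1 and Tmem173. The core of the interferon-stimulated response element, searched on both strands as GAAA, any 2 bases and GAAA, was found in the windows of Ddx58 and Ifih1 and in none of the windows of Tlr3, Mavs, Tbk1, Trex1 and Samhd1. Of all 32851 windows 3.44% held it. The core of the STAT-binding GAS element, TTCNNNGAA, which reads the same on both strands, was found in Samhd1 alone of the 7 genes, and in 8.3% of all windows. The 30 bases around each match follow, in the direction of the gene, with the match in capitals.
Ddx58 (chr4:40239804-40239833, minus strand): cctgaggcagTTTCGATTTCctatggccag
Ifih1 (chr2:62646206-62646235, minus strand): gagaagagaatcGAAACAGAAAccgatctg
Samhd1 (chr2:157135312-157135341, minus strand): acaccaccctTTCGGAGAAacacaagggcg
The match in Ddx58 begins at base 3 and that in Ifih1 at base 33 of the annotated transcript, and that in Samhd1 at position -235 from the start. Of the interferon response genes listed for comparison, 6 of 10 with a window held the first core (Isg15, Ifit1, Ifit3, Oas1a, Rsad2 and Stat2) and 2 of 10 the second. Of the further pathway genes described below, the first core was in 2 of 8 windows of those at least 2-fold higher and in 3 of 40 of the others, and the second in 3 of 8 and 4 of 40. These matches are descriptions of the sequence, and binding was not measured.

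The rest of the pathway was read from a list of 62 further genes, all of which had a probe. In limma 23 of the 58 tested were higher in the arrays labelled Pak1 -/-, 12 were lower and 23 did not pass, beside 23.3% higher and 28.6% lower over all probes, and 4 were too dim to be tested. The median difference was 0.13, beside -0.05 over all probes tested. Of the list, 11 were higher by at least 2-fold and 0 were lower by as much, against 6.94% and 5.6% of the probes. For Ddx60 and Nlrc5, 2 of those 11, the probe that stood for the gene was well above background only in the arrays labelled Pak1 -/- and entered the test through that group. Only 6 genes were called lower when Pak1 +/+ replicate 1 was left out, and again 6 when Pak1 +/+ replicate 2 was.

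Helpers of the RNA receptors and other RNA sensors held 7 higher genes and 1 lower of 11 tested (median 0.85), beside 23.3% and 28.6% over all probes. Trim25, the ubiquitin ligase that activates RIG-I, was 16.10 and 16.05 against 13.23 and 13.45 (difference 2.74, SE 0.10, adjusted p = 0.00016). Rnf135 (Riplet), a ligase that also acts on RIG-I, was higher by 1.21 and 1.20 on its 2 probes. Eif2ak2 (PKR), the kinase that stops translation on double-stranded RNA, was 14.44 and 14.40 against 11.95 and 12.05 (2.42, SE 0.08, adjusted p = 0.00012). Ddx60 was not well above background on either array labelled Pak1 +/+ and was at least 3.58-fold higher. The helicase Dhx15 was lower (-0.58, adjusted p = 0.0051).

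Of 6 endosomal receptors and adaptors tested 2 were higher and 0 lower, beside 23.3% and 28.6% over all probes. They were Ticam1, the adaptor of Tlr3 (0.53, adjusted p = 0.010), and the chaperone Cnpy3 (0.39, adjusted p = 0.0089). Tlr9 (0.15, adjusted p = 0.14) and the adaptor Myd88 (0.09, adjusted p = 0.50) did not pass, and Tlr8 was too dim to be tested.

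Of 8 sensors of DNA tested 2 were higher and 3 lower, shares close to the 23.3% and 28.6% over all probes. The cyclic dinucleotide synthase cGAS, Mb21d1, is named E330016A19Rik on the array. It was 12.65 and 12.65 against 11.50 and 11.45 by the brightest of 3 probes (1.18, SE 0.07, adjusted p = 0.00046), and another gave 0.96. The third was not well above background on either array labelled Pak1 +/+ and gives only a bound, at least 1.02-fold higher. Ifi204 was higher by 1.79 (adjusted p = 0.00035). The 3 lower genes were Xrcc6 (-0.77), Mre11a (-0.68) and Xrcc5 (-0.47), which also act in the joining or recombination of broken DNA. Aim2 was well above background on 1 array and was not tested.

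Among regulators of the adaptors 4 of 10 were higher and 1 lower, beside the same shares over all probes (23.3% and 28.6%). Nlrc5, better known as the activator of MHC class I genes, was 10.74 and 10.49 where the arrays labelled Pak1 +/+ were not well above background (6.48 and 6.52), at least 13.4-fold higher. A second Nlrc5 probe, well above background on 1 array labelled Pak1 +/+ as well, was higher by 0.88. Trim32 was higher by 1.15 and Trim56, a ligase of the cGAS and STING branch, by 0.81. Nlrx1, a mitochondrial protein that restrains Mavs, was higher by 1.06, while its other probe was at -0.15 and did not pass (adjusted p = 0.26). Dak, an inhibitor of MDA5, was lower (-0.44, adjusted p = 0.016).

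The kinase complexes held 5 higher and 4 lower genes of 12 tested, beside 23.3% and 28.6% over all probes, so the share that was lower is near that of the array. Ikbke, the kinase most like Tbk1, was 11.08 and 10.93 against 11.73 and 11.76, lower by 0.74 on the log2 scale (difference -0.74, adjusted p = 0.0025). The scaffold proteins of Tbk1 were named here after their values were seen. Tbkbp1 was at 0.19 and did not pass (adjusted p = 0.11), and Tank and Azi2 were at -0.37 each (adjusted p = 0.012 and 0.014). The dimmer probe of Azi2 had a fitted difference of 0.27, in the opposite direction, and did not pass (adjusted p = 0.21). That probe was not well above background on either array labelled Pak1 +/+. The adaptors Traf2 (0.94), Traf3 (0.74) and Tradd (0.57) were higher (adjusted p = 0.00092, 0.0047 and 0.0033).

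Of the nucleases and RNA editing enzymes 2 of 8 were higher, close to the 23.3% over all probes, and 3 lower, beside 28.6%. Adar, which edits double-stranded RNA so that MDA5 does not bind it, was 14.47 and 14.40 against 12.33 and 12.36 (2.09, SE 0.07, adjusted p = 0.00013), with 2.53 on its other probe. Rnaseh2a, a subunit of the enzyme that removes RNA from DNA, was lower on all 4 of its probes, by 0.50 on the brightest (difference -0.50, adjusted p = 0.0061), and Rnaseh2c was at -0.38 (adjusted p = 0.014). The third lower gene, Pnpt1, was at -0.33 on its brighter probe (adjusted p = 0.017) and at 0.70 on its other (adjusted p = 0.0022), which passed in the opposite direction.

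Downstream of Tbk1, Irf7 was 14.30 and 14.26 against 8.10 and 8.28, a difference of 6.09 (SE 0.09, adjusted p = 4.2e-05). Irf3, the factor present before any signal, was at -0.20 and did not pass (adjusted p = 0.12). The ligand Ifnb1 was 7.96 and 7.997 against 7.93 and 6.67, well above background on 3 arrays, and did not pass (0.68, adjusted p = 0.24). Ifna4 was not well above background on any array.

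**Figure D3:**
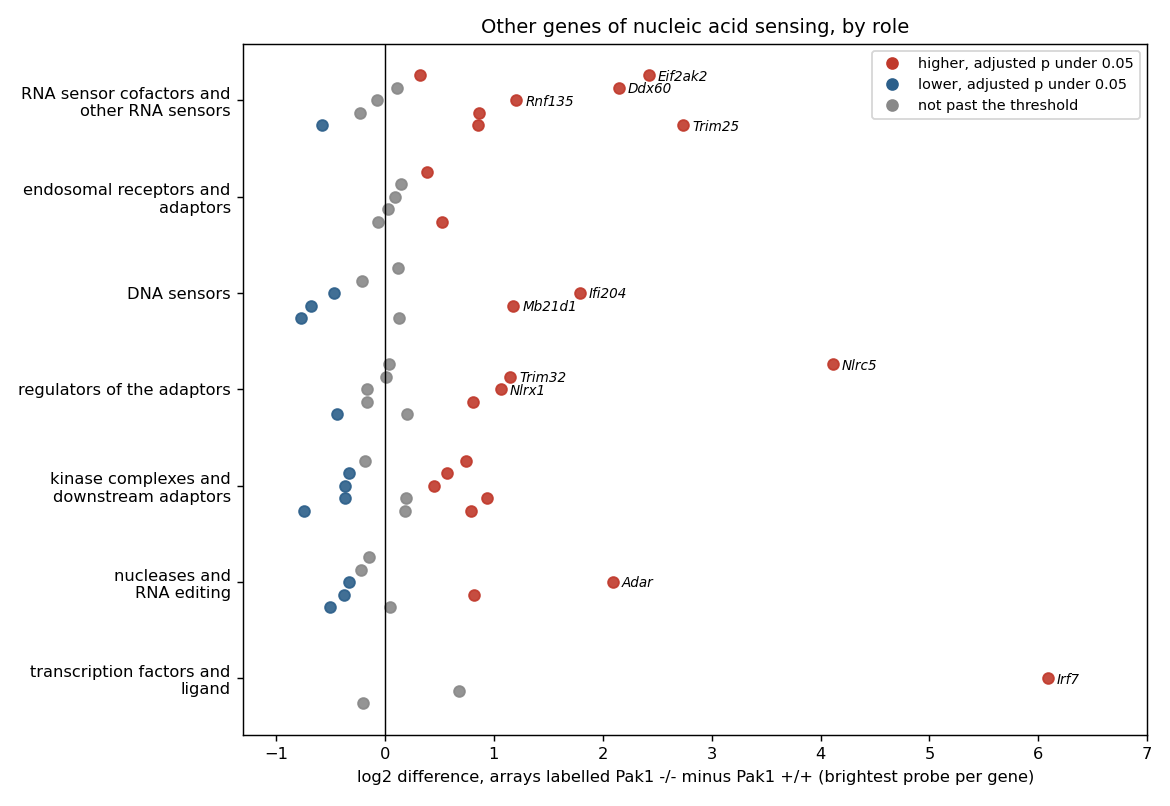
Log2 difference (horizontal axis, arrays labelled Pak1 -/- minus Pak1 +/+) of the 58 tested genes of the pathway list, by role, 1 point a gene; the vertical spread within a role has no meaning, and genes at or above 1 are named (Ddx60 and Nlrc5 at their fitted values). Red points are higher, blue lower and grey not past the threshold: 23 are red, 12 blue and 23 grey, and none of the blue points is beyond -1.

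The pattern of Dhx58 was compared with that of every other gene, by the Euclidean distance of its centred log2 values over the 4 arrays. Among the closest 5 of 21947 genes were Parp14 (distance 0.10), Tead2 (0.14) and Zfp618 (0.15). The other two, Plcl2 and Dcaf12l1, were at background in the arrays labelled Pak1 +/+, so their distances have no meaning. With 4 arrays in 2 groups this measure mostly picks genes with the same difference between groups.

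A list of 15 interferon response genes was read beside the 7 higher members. All 15 were higher in limma, beside 23.3% over all probes, with a median of 6.18. The largest were Oas2 (8.01), Ifit3 (7.66) and Ifit1 (7.25). Mx1 and Rsad2 were not well above background on either array labelled Pak1 +/+ and were at least 7.69-fold and 85.2-fold higher. These genes entered the test, and so the count and the median, only through the arrays labelled Pak1 -/-. The list summed to intensities of 722000 and 663237 in the group labelled Pak1 -/- against 12182 and 15208, and its part in the result was not tested.

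Markers of other cell types were read because leukocytes carry many of these receptors. Of 13 leukocyte markers 8 could be tested. In limma 0 of these were higher and 4 lower (Ptprc, Emr1, Fcer1g and Coro1a), beside 23.3% and 28.6% over all probes. None of the 4 arrays had Laptm5, Tyrobp or Itgax well above background. Cd3e (11.34 to 11.70) and Csf1r (10.57 to 11.00) were well above background on all 4 arrays and did not pass. Ptprc, which defines leukocytes, was close to background, at 7.15 and 7.14 against 7.59 and 7.60. Their summed intensity was 76299.5 and 53617 against 50159.6 and 45388, most of it from 1 Itgam probe (16.07 and 15.51 against 15.39 and 15.20, adjusted p = 0.11) whose 2 other probes were at 7.35 to 8.23. Of 8 fibroblast markers 3 could be tested, and 1 was higher (Col1a1, 1.12) and 0 lower, beside 23.3% and 28.6% over all probes. Col3a1, Pdgfrb, Dcn and Lum were at background throughout. The summed intensity of the 8 markers was 1375 to 1564 against 1213 to 1251. Of 6 endothelial markers 3 could be tested and 0 passed, beside 51.9% in either direction over all probes. Kdr was bright on all 4 arrays (12.99 to 13.27) and Pecam1 was at 9.23 to 9.47, while Tek, Tie1 and Emcn were at background throughout. The summed intensity of the 6 markers, most of it from Kdr, was 10077 to 10452 against 9137 to 10940.1. In bulk RNA a change in the share of cells of a type and a change in RNA per cell cannot be told apart.

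**Figure D4:**
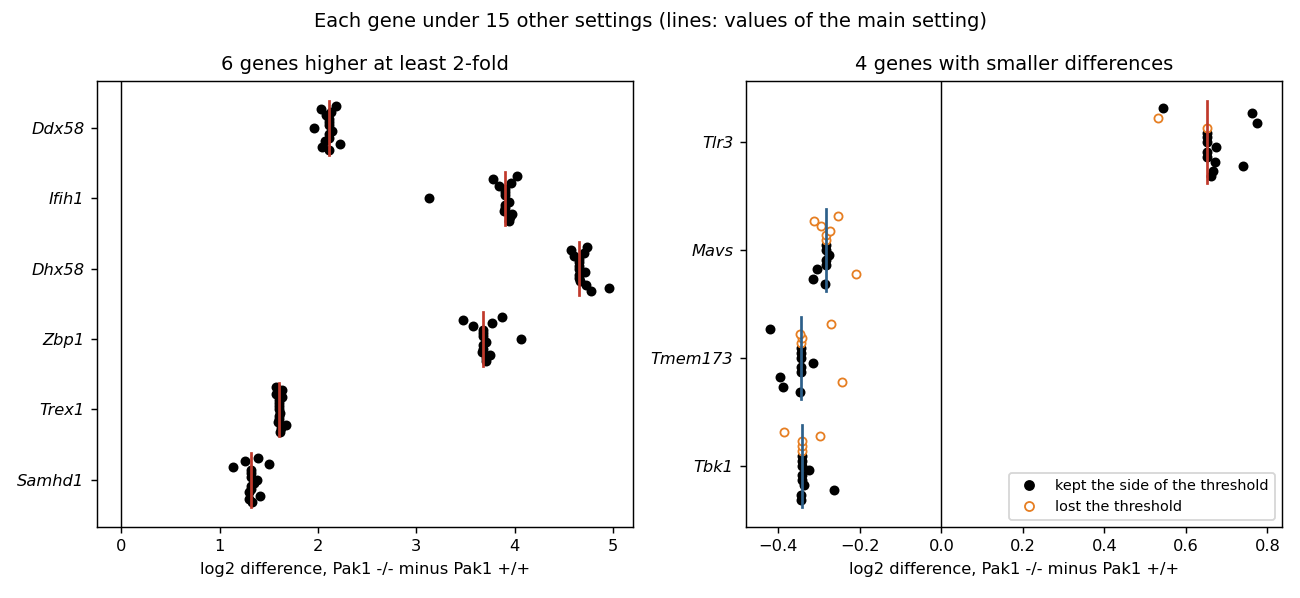
Log2 difference of each gene (horizontal axes, which differ between panels) under 15 other settings of processing, threshold or samples, 1 point a setting, with the main value as a vertical line; black points kept their side of the threshold and open orange points lost it. All 6 genes on the left kept their calls, while Tlr3 lost 2 and Mavs, Tmem173 and Tbk1 lost 5 to 7 each.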

How the data were processed

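Linear spot intensities, 1 array a sample, came from the deposited scanner output of Agilent Feature Extraction 9.5.3.1, which per the file headers places probes on mm9. A processed log2 table from the authors, which the study's methods describe as normexp corrected and quantile normalized, was used as an alternative; its offset is not given in the sources used here. Following those methods, spot means were corrected for local background with normexp (offset 50, set here) in limma 3.58.1 (R 4.3.3). Control spots were then left out, and log2 values were quantile normalized. Outlier spots were set aside and spots of a probe averaged, and no member lost a value. The 27229 probes that the scanner called well above background on 2 or more of the 4 arrays were compared with lmFit and eBayes (moderated, two-sided), adjusted by Benjamini-Hochberg over all of them, with a threshold of 0.05. The offset understates changes of dim probes. An exact permutation test of 2 against 2 cannot go below 0.333. The number of arrays limits the precision. Where both arrays of a group failed that call, the probe gives a bound against the higher of its own value and the lowest value well above background on each array.

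The members, lists and rules were chosen with earlier results of these data known. Named were all members, pathway genes past the threshold with a difference of at least 1, up to 4 genes a role by adjusted p, and the largest 3 interferon genes. 1 gene that this rule names is not reported here. Scripts were tested on simulated data.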

Additional observations from a re-analysis of the deposited data

How the results depend on the processing

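The 7 members that were higher stayed at 6 or 7 under 15 alternatives (6 or 7 in leave-one-out fits), and no member changed direction under any of them. Dhx58, Ifih1, Zbp1, Ddx58, Trex1 and Samhd1 kept their calls under all 15. The 3 lower members became 1 under cyclic loess and 0 at an adjusted p under 0.01, and their leave-one-out counts were 0 to 1. The 12 lower genes of the pathway list became 6 at an adjusted p under 0.01 and 6 to 12 in leave-one-out fits, and the 14132 probes called became 8878 at an adjusted p under 0.01, a stricter rule. Leave-one-out fits have fewer arrays and assume that a lone array varies as the other group does. Otherwise the cause was not tested. The value of Ifih1 moved to 3.13 with the mean over its probes, one of which was at background in the arrays labelled Pak1 +/+.

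Nothing in the labels makes a shared replicate number a pairing, and same-numbered samples did not deviate together (r = -0.028 across probes). In the fit with the replicate block, 7 members were higher and 2 lower, since Mavs was lost (adjusted p = 0.052), and 13211 probes passed. The probe of the mouse gene Erbb2 was at -0.31 (adjusted p = 0.020) and lost its call under 4 alternatives. Whether that probe also reads the Neu transgene is not given in the sources used here. The Pak1 probe passed under cyclic loess alone (0.27, adjusted p = 0.027).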
